A study of Homo sapiens with 6 samples.

Results

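The S phase and DNA replication genes are 39 genes that license replication origins, start and copy DNA, supply its nucleotides or bring cells into S phase. They were chosen by gene symbol, through the platform annotation of the array, and each gene was represented by its probe set with the highest mean over 6 arrays. All 39 were among the 10459 genes tested, and the lowest value of any of them on any array was 6.13 (log2), above the value of 5 taken as the limit of background. By step, 11 of them belong to origin licensing, 6 to initiation, 14 to polymerases with the sliding clamp, its loader, the flap nuclease and the ligase, 4 to nucleotide supply and 4 to S phase entry. The cells of every group were SK-N-AS, an established human neuroblastoma cell line, and the stated purpose was to compare stem cell traits across culture conditions. The Monolayer group grew as a monolayer with no pretreatment, and the Sphere group, also with none, grew as spheroids in medium that lacked serum. The iCSC group received 2.5 uM 5AdC, a deoxycytidine analogue that inhibits DNA methyltransferases, for 5 days as a monolayer and was then grown as spheroids in the serum-free medium. Sphere and Monolayer thus differed in growth form and in medium together, iCSC and Sphere in the pretreatment, and iCSC and Monolayer in all of these, and each group was measured on 2 arrays.

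Before S phase, the origin recognition complex with CDC6 and CDT1 loads the MCM2 to MCM7 helicase onto origins, and geminin, the product of GMNN, blocks CDT1 so that no origin is loaded again. At S phase onset the helicase is switched on by CDC45, the GINS complex and MCM10, primase and polymerase alpha start each strand, and polymerases delta and epsilon extend it on the PCNA clamp. Many of these genes are known targets of E2F transcription factors, which cyclin E kinase activity releases from the retinoblastoma protein, and their transcripts are usually most abundant in dividing cells.

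Signals are log2 values made with GCRMA, and their medians per array were 2.78 to 2.83, alike on all 6. Whether both arrays of a group stem from independent cultures is not stated in the labels, so every p-value reflects array-to-array spread alone, possibly technical, and the small number of arrays limits the precision. Arrays are numbered within their group (Monolayer 1 is the first Monolayer array), and an adjusted p after leaving out 1 array is given in brackets, followed by the lowest and highest over the alternatives that could be fitted, at most 17. In bulk RNA, fewer cells in S phase and less of a transcript per cell cannot be told apart. The ACTB probe sets for the 3' and 5' ends, a sign of RNA quality, differed by 1.40 to 1.47 (log2) on the iCSC arrays and by 1.16 to 1.25 on the others, while those of GAPDH differed by 0.12 to 0.20 on all 6. None of the 8 leukocyte and 4 epithelial markers on the array reached the limit of background, whereas of the endothelial markers TEK reached it in Monolayer and PECAM1 in Sphere, and of the Schwann cell markers ERBB3 in Monolayer and iCSC. The summed signal of the 8 sympathoadrenal markers, which mark the lineage of neuroblastoma, ran from 12.77 to 13.13 (log2) in Sphere, from 9.83 to 10.05 in Monolayer and from 9.40 to 9.71 in iCSC. Such a sum follows its strongest members. GATA2, GATA3 and ISL1 reached the limit on both Monolayer arrays, and GATA3, HAND2, ISL1, PHOX2A and TH on both iCSC arrays. On both Sphere arrays GATA2, GATA3, HAND1, HAND2, ISL1, PHOX2A and TH did. The 5 endothelial markers summed to between 8.03 and 8.15 (log2) in Monolayer, 6.35 to 6.51 in Sphere and 6.12 to 6.34 in iCSC, and the 3 Schwann cell markers to 5.59 to 5.63, 5.02 to 5.42 and 7.20 to 7.82. The part of RNA quality and of these marker levels in the results that follow was not tested.

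The promoters of 5 members are shown as examples of different patterns among the 39, and all 5 hold sequences of the E2F type. PCNA and POLA1 were each the only member with their pattern of calls, as were PRIM1, RFC5 and RFC3, whose promoters are not printed. MCM6 and TK1 were lower in both spheroid groups than in Monolayer, PCNA was higher in Sphere, POLA1 was lower in Sphere and higher in iCSC, and E2F1 was higher in iCSC. Each window runs from 250 bases before to 50 bases after the start of a RefSeq transcript on GRCh38.p14, so it holds the proximal promoter and the first bases of the transcript. The windows lie at chr2:135876394-135876693 on the minus strand (MCM6), chr17:78187003-78187302 on the minus strand (TK1), chr20:5126573-5126872 on the minus strand (PCNA), chrX:24693668-24693967 on the plus strand (POLA1) and chr20:33686336-33686635 on the minus strand (E2F1). Capitals mark E2F-type motifs on either strand, and sequences read from 5′ to 3′ along the gene. The first form of the motif is TTCCCGC, the second form is TTCGCGC, the third form is TTGCCGC and the fourth form is TTGGCGC.
MCM6: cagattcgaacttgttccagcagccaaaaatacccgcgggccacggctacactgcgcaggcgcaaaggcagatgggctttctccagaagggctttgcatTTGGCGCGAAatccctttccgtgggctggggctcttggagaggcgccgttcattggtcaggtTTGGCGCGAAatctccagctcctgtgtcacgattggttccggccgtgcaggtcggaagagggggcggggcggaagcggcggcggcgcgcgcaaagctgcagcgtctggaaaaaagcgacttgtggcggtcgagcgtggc
TK1: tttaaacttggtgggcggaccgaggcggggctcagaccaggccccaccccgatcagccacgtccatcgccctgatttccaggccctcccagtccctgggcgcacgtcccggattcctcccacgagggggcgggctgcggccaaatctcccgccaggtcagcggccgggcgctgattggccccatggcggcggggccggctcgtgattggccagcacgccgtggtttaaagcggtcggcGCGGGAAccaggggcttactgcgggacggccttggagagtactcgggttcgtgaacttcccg
PCNA: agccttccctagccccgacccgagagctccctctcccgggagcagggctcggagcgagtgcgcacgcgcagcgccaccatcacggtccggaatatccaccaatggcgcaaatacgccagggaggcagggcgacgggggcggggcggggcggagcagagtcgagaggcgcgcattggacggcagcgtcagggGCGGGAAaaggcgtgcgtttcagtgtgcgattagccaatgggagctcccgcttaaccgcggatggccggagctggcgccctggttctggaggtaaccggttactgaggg
POLA1: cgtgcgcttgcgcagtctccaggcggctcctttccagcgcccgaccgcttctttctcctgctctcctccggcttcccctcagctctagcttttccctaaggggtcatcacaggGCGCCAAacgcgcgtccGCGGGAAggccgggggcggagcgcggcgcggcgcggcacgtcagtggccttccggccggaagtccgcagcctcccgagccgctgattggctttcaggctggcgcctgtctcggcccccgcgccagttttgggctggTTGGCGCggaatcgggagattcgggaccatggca
E2F1: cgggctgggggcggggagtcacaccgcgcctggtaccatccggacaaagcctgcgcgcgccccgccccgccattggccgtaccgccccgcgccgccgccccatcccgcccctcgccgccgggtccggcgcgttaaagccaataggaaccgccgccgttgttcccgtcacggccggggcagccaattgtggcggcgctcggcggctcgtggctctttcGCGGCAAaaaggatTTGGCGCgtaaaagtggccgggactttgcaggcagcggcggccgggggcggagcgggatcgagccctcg

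MCM6 held 4 motifs in 2 overlapping pairs on opposite strands, beginning -151, -148, -89 and -86 bases from the start. The motif of TK1 began at -12, that of PCNA at -59, those of E2F1 at -33 and -19, and those of POLA1 at -137, -120 and 16. TK1 and PCNA each have another window that holds no motif, and the window printed is the one with a motif. Promoter windows were held for 33 members, 42 windows in all, since some genes have several starts, and windows of one gene can overlap. No window was at hand for MCM4, MCM5, GINS4, POLD3, CCNE2 and E2F8. A motif was present in 28 of the 42 windows (66.7%, 95% Wilson interval 51.6 to 79.0, counting error only), against 13.0% of all 35116 windows in the table and 18.9% of the 12789 windows of tested genes. Per gene, 27 of 33 members (81.8%) had a motif in at least 1 window, against 25.3% of 8665 tested genes. Of the 46 motifs, 19 were of the first form, 12 of the second, 1 of the third and 14 of the fourth. Motifs of opposite strands overlapped in 4 windows. Of them, 28 began within 50 bases of the start on either side. The median GC content was 66.7% in the members' windows, 65.0% in those of tested genes and 58.7% over all windows. A match is a run of letters and not a measured site.

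**Figure D1:**
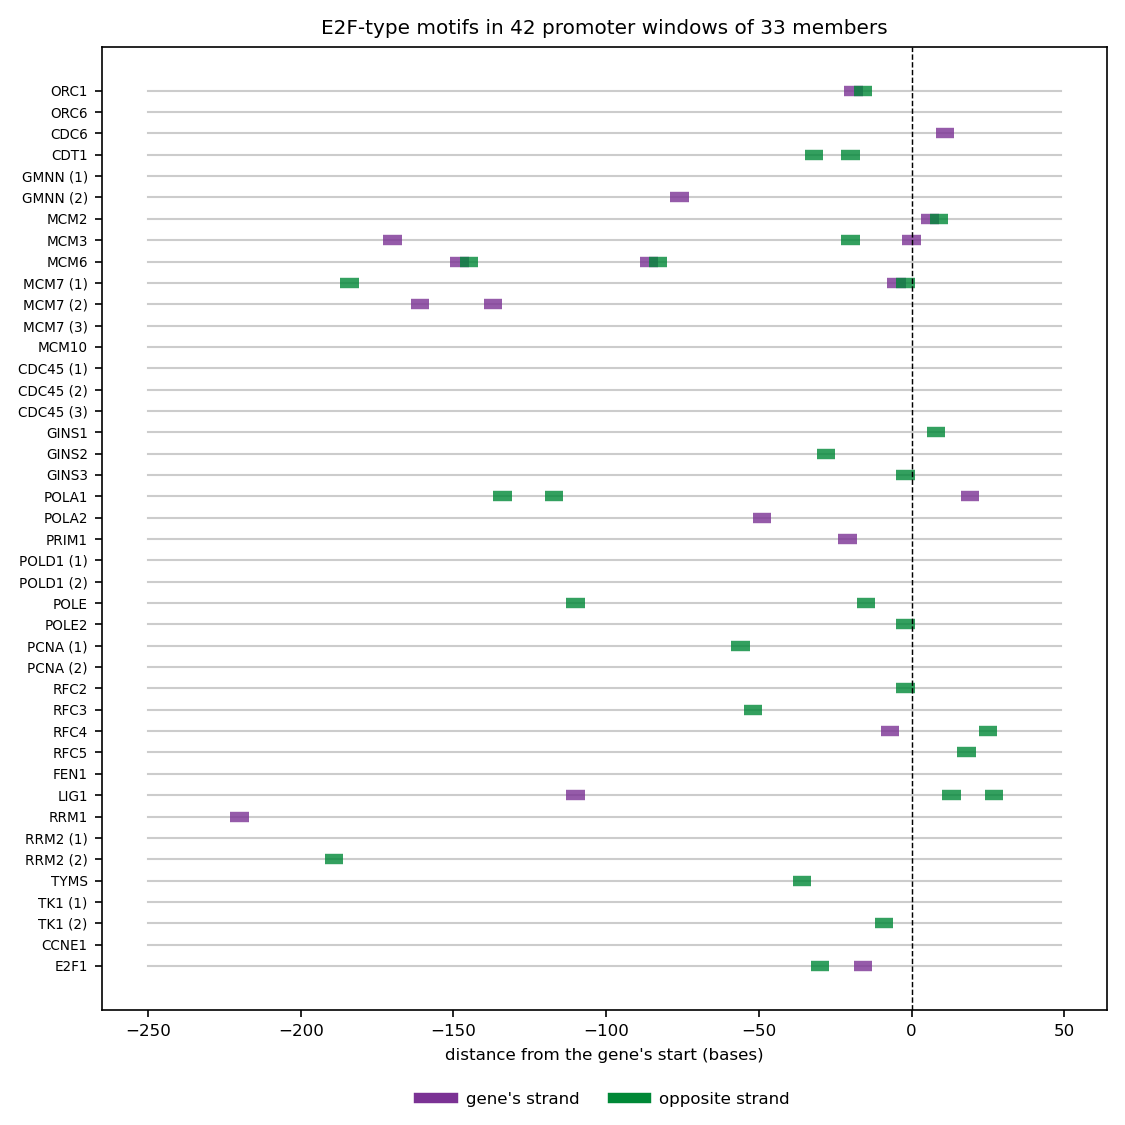
Position of E2F-type motifs in the 42 promoter windows of 33 members, with the distance from the gene's start in bases on the horizontal axis, 1 line per window and colours for the strand. Of 46 motifs, 28 began within 50 bases of the start, and 28 of 42 windows held at least 1.

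In Sphere, most of the 39 genes stood below Monolayer. With limma and Benjamini-Hochberg adjustment over all 10459 genes, 23 of the 39 fell, 3 rose and 13 did not pass an adjusted p of 0.05, so that 66.7% were called, where 59.0% of all tested genes were called in this comparison. Of all genes 29.1% were lower and 30.0% higher, so the members' calls, unlike those of all genes, lay mostly on the lower side. The members' median log2 difference was -0.42, with a range of -2.27 to 0.49, and that of all tested genes was 0.01. The 3 that rose were PRIM1, PCNA and RFC5. Without Monolayer 1 the count was 2 higher and 9 lower, without Monolayer 2 it was 1 and 13, and without Sphere 1 it was 2 and 10, while the median stayed between -0.52 and -0.33 in the 17 alternatives.

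Between iCSC and Sphere few members differed. Of the 39, 5 rose, 3 fell and 31 did not pass the test, 20.5% called against 38.5% of all tested genes, of which 19.3% were higher and 19.2% lower. The members' median log2 difference was 0.13, with a range of -1.61 to 1.23, against 0.01 over all genes. It was 0.02 without iCSC 2, 0.04 without Sphere 1, 0.21 without Sphere 2 and 0.25 without iCSC 1, so its size rested on single arrays. CCNE2, POLA1, RRM2, POLD3 and RFC3 rose, and GINS4, POLE2 and PCNA fell. With arrays centred on their medians 3 rose and 3 fell, and without Sphere 1 the counts were 2 and 3.

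Between iCSC and Monolayer, 19 of the 39 fell, 4 rose and 16 did not pass, which is 59.0% called beside 55.6% of all genes, of which 26.6% were lower and 29.0% higher. The median log2 difference was -0.34 for the members, with a range of -1.48 to 0.87, and 0.02 for all genes. POLE, E2F1, POLA1 and RFC5 were the 4 that rose. Without Monolayer 1 the counts were 2 higher and 9 lower, and without Monolayer 2 none rose and 14 fell. The 3 comparisons share their groups and are not independent, so their values are given side by side. In every comparison in which a member was called, its arrays did not overlap between the groups compared. With 2 arrays per group a call nearly requires this, so it adds no support to the calls. Uncalled members such as CDT1 and MCM7 in Sphere against Monolayer did not overlap either, and the share over all genes was not counted.

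**Figure D2:**
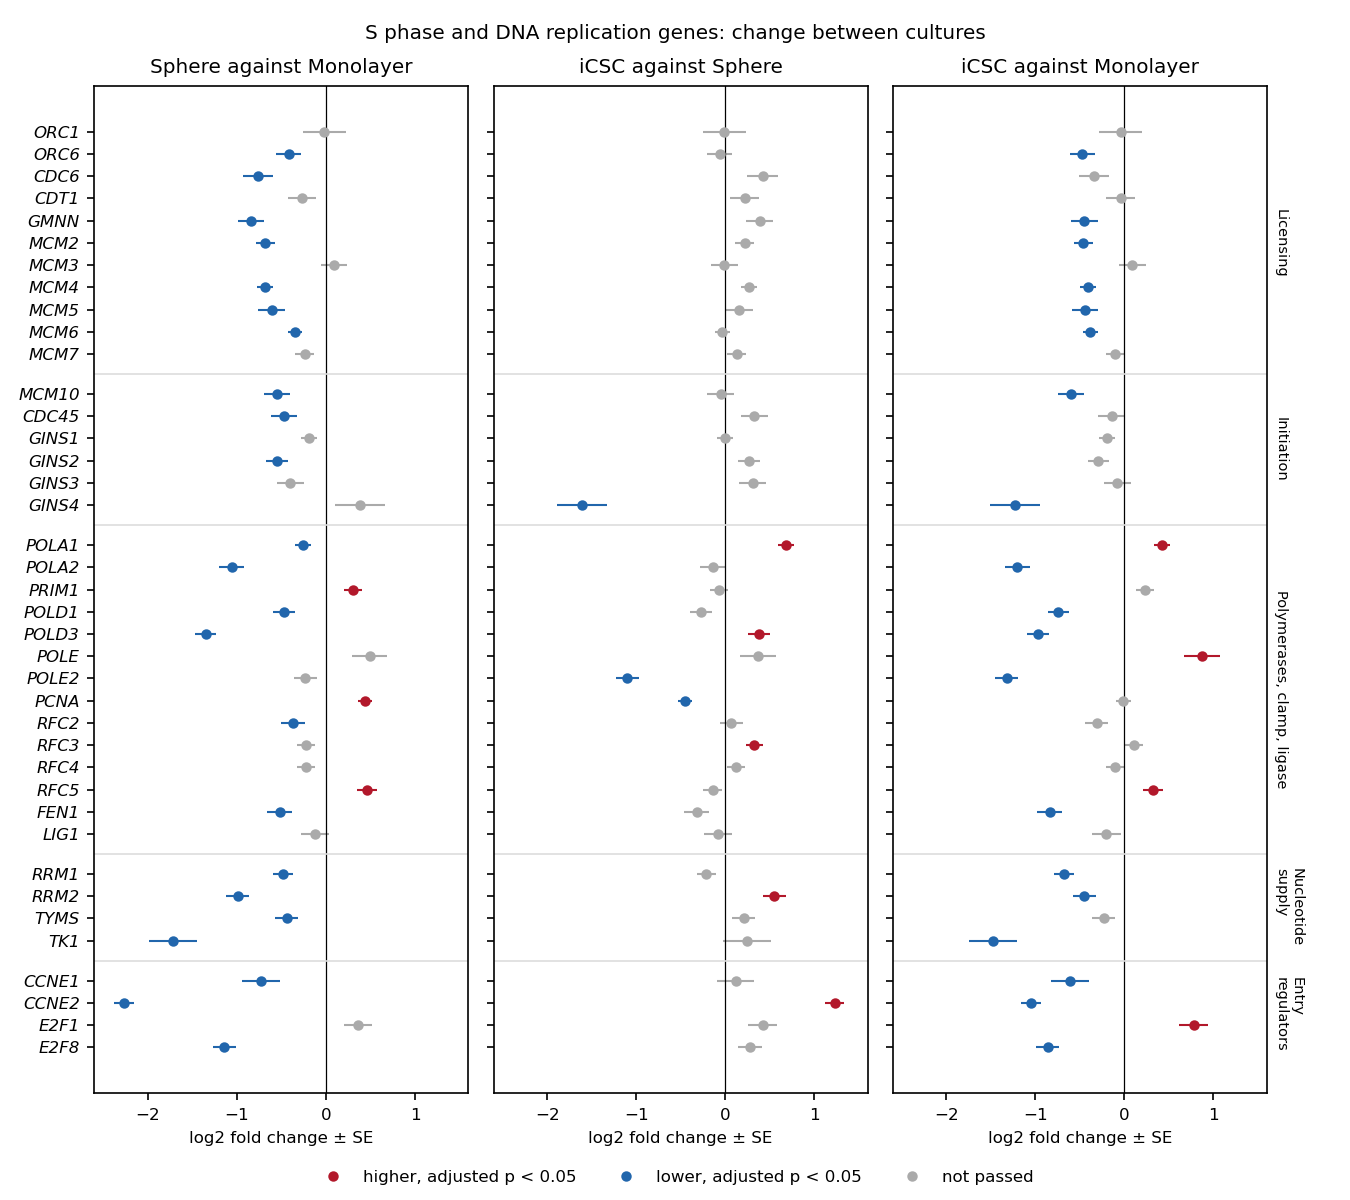
Log2 fold change with its standard error (horizontal axis) of each of the 39 genes in the 3 comparisons, in order of step, coloured by call at an adjusted p under 0.05. In Sphere against Monolayer 23 points are called lower and 3 higher, in iCSC against Sphere 3 and 5, and in iCSC against Monolayer 19 and 4.

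Among the 11 licensing genes, 7 fell in Sphere, none rose, and the median log2 difference from Monolayer was -0.42. This is 63.6% called, where 59.0% of all tested genes were called, 29.1% lower and 30.0% higher. Of the 6 subunits of the replicative helicase, 4 fell and 2 did not pass. MCM2 gave log2 signals of 11.83 and 11.63 in Monolayer, 10.98 and 11.12 in Sphere and 11.19 and 11.34 in iCSC, and both Sphere arrays lay below both Monolayer arrays by more than the arrays of a group lay apart (-0.68 ± 0.11, adjusted p = 0.0021). MCM4 read 11.29 and 11.23 in Monolayer, 10.53 and 10.64 in Sphere and 10.79 and 10.91 in iCSC on the log2 scale, lower in Sphere by a log2 difference of -0.68 ± 0.09 (adjusted p = 0.00102). For MCM5 the log2 signals were 10.57 and 10.21 in Monolayer, 9.71 and 9.86 in Sphere and 9.86 and 10.04 in iCSC, and the difference was -0.61 ± 0.15 (adjusted p = 0.0126). These 3 subunits thus read highest on the Monolayer arrays and lowest on the Sphere arrays. MCM6 stood at 12.60 and 12.54 in Monolayer, 12.14 and 12.30 in Sphere and 12.15 and 12.22 in iCSC (log2), the smallest of the 4 called differences at -0.35 ± 0.08 (adjusted p = 0.0108). MCM3 did not share these orders, with 11.03 and 10.99 in Monolayer, 11.07 and 11.14 in Sphere and 10.87 and 11.32 in iCSC (log2) and no call (log2 difference 0.09 ± 0.15, adjusted p = 0.617). MCM7 also had no call, with 11.99 and 11.79 in Monolayer, 11.61 and 11.70 in Sphere and 11.69 and 11.89 in iCSC (log2 difference -0.24 ± 0.11, adjusted p = 0.103). The MCM5 call was lost without Monolayer 1 (0.0842) or Sphere 1 (0.0815), within a range of 0.00316 to 0.0842, and the MCM6 call without Monolayer 1 (0.082) or Sphere 1 (0.06), within a range of 0.00058 to 0.082. The median log2 difference of genes on chromosome 3, where MCM2 lies, was -0.46, and with chromosome medians removed MCM2 stood at -0.13 (adjusted p = 0.351) and MCM6 at -0.76.

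Of the 5 remaining licensing genes, which encode loading factors and their inhibitor, 3 fell in Sphere. GMNN, which encodes the CDT1 inhibitor geminin, had log2 signals of 12.00 and 12.00 in Monolayer, 10.97 and 11.36 in Sphere and 11.41 and 11.69 in iCSC, and fell in Sphere by 0.84 ± 0.15 on the log2 scale (adjusted p = 0.00351), a call lost without variance moderation (0.0519). CDC6, the loader of the helicase, read 10.16 and 10.21 in Monolayer, 9.25 and 9.59 in Sphere and 9.64 and 10.04 in iCSC (log2), lower in Sphere by a difference of -0.76 ± 0.17 (adjusted p = 0.00921). ORC6, a subunit of the origin recognition complex, read 10.33 and 10.38 in Monolayer, 9.77 and 10.11 in Sphere and 9.78 and 9.98 in iCSC (log2), with a difference of -0.42 ± 0.14 (adjusted p = 0.0402). All 3 were highest on the Monolayer arrays, while ORC1, the largest subunit of that complex, overlapped between all groups at 7.54 and 7.07 in Monolayer, 7.12 and 7.45 in Sphere and 7.08 and 7.46 in iCSC (log2). CDT1, the partner of CDC6, stood at 8.24 and 8.06 in Monolayer, 7.95 and 7.81 in Sphere and 7.98 and 8.23 in iCSC (log2), a difference of -0.27 ± 0.16 that did not pass (adjusted p = 0.188). Leaving out 1 array ended the call of CDC6 without Monolayer 1 (0.0555), Monolayer 2 (0.0649) or Sphere 1 (0.0637), within a range of 0.00314 to 0.0733. It ended that of ORC6 without Monolayer 1 (0.135), Monolayer 2 (0.168) or Sphere 1 (0.197), within a range of 0.0221 to 0.197.

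Between iCSC and Sphere no licensing gene passed the test, where 38.5% of all tested genes did. The log2 differences ran from -0.06 to 0.42, with a median of 0.16. The largest, for CDC6, was 0.42 ± 0.17 (adjusted p = 0.101), and those of GMNN and MCM4 were 0.39 ± 0.15 (0.0882) and 0.27 ± 0.09 (0.0615). They passed without 1 array each, CDC6 and MCM4 without iCSC 1 (0.0364, within a range of 0.0364 to 0.689, and 0.046, within 0.046 to 0.306) and GMNN without Sphere 2 (0.0422, within 0.0386 to 0.379). Against Monolayer, 6 of the 11 fell in iCSC with a median of -0.38, which is 54.5% called beside 55.6% of all tested genes. Among the 6 were 4 helicase subunits, where MCM2 fell by 0.46 ± 0.11 (adjusted p = 0.0118), MCM4 by 0.41 ± 0.09 (0.00986), MCM5 by 0.44 ± 0.15 (0.0432) and MCM6 by 0.38 ± 0.08 (0.00809) on the log2 scale. GMNN and ORC6 were the others, at -0.45 ± 0.15 (0.0438) and -0.47 ± 0.14 (0.0274). Without Monolayer 1 all 6 calls were lost, those of MCM2 (0.0915), MCM4 (0.0762), MCM5 (0.244), MCM6 (0.0682), GMNN (0.164) and ORC6 (0.109). GMNN and ORC6 also lost them without Monolayer 2 (0.163 and 0.133) or iCSC 1 (0.178 and 0.1), and MCM5 without Sphere 1 (0.072), Sphere 2 (0.0722), iCSC 1 (0.15) or iCSC 2 (0.0504), within a range of 0.00641 to 0.244. The ranges of the others were 0.00745 to 0.695 for MCM2, 0.00765 to 0.0886 for MCM4, 0.000741 to 0.0682 for MCM6, 0.0171 to 0.178 for GMNN and 0.0141 to 0.133 for ORC6. CDC6 and MCM3, not called, passed without iCSC 2 (0.0412, within 0.0412 to 0.513) and without iCSC 1 (0.0299, within 0.0299 to 0.837), the latter as higher in iCSC. On chromosome 3 the median was -0.39 (log2), and with chromosome medians removed MCM2 stood at 0.06 (adjusted p = 0.695), MCM6 at -0.76 and GMNN lost its call (0.124).

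**Figure D3:**
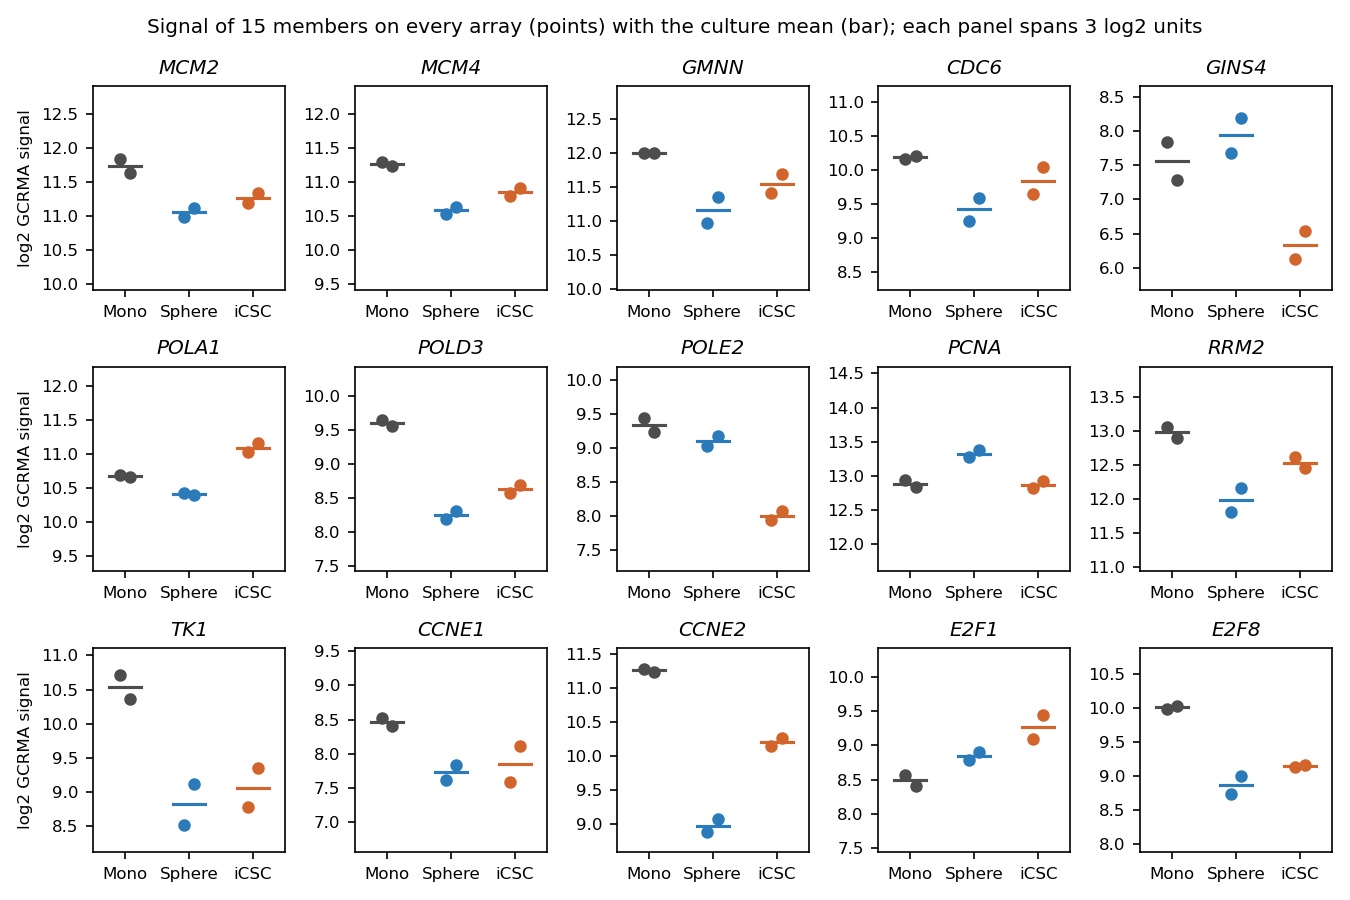
Log2 GCRMA signal (vertical axis) of 15 members on each of the 6 arrays, as points with the mean of each group as a bar, on panels that all span 3 log2 units. CCNE2 lies at 11.24 to 11.28 in Monolayer, 8.89 to 9.07 in Sphere and 10.15 to 10.27 in iCSC, while GINS4 and POLE2 are lowest in iCSC and PCNA is highest in Sphere.

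Of the 6 initiation genes, 3 fell in Sphere and none rose, with a median log2 difference of -0.43. MCM10, which steadies the activated helicase, read 10.89 and 10.76 in Monolayer, 10.14 and 10.41 in Sphere and 10.07 and 10.38 in iCSC (log2), a difference of -0.55 ± 0.15 (adjusted p = 0.0174). CDC45, a cofactor of the helicase, read 9.65 and 9.58 in Monolayer, 9.01 and 9.29 in Sphere and 9.33 and 9.63 in iCSC (log2), a difference of -0.47 ± 0.15 (adjusted p = 0.0352). GINS2, in the GINS complex, read 9.57 and 9.41 in Monolayer, 8.88 and 8.99 in Sphere and 9.20 and 9.20 in iCSC (log2), a difference of -0.55 ± 0.12 (adjusted p = 0.00682). In all 3 the Monolayer arrays lay above the Sphere arrays. The other 3 GINS subunits did not pass, GINS1 with 11.92 and 11.83 in Monolayer, 11.61 and 11.76 in Sphere and 11.61 and 11.77 in iCSC (log2) and GINS3 with 9.11 and 8.81 in Monolayer, 8.44 and 8.68 in Sphere and 8.88 and 8.87 in iCSC. Their log2 differences were -0.19 ± 0.09 (adjusted p = 0.133) and -0.40 ± 0.15 (0.0645). The call of MCM10 was lost without Monolayer 1 (0.113), Monolayer 2 (0.0639) or Sphere 1 (0.108), within a range of 0.00594 to 0.113. With chromosome medians removed GINS3 passed (0.0309), as it did with arrays centred on their medians (0.0452), within a range of 0.0309 to 0.33. The call of CDC45 was lost without Monolayer 1 (0.163), Monolayer 2 (0.114) or Sphere 1 (0.185), within a range of 0.0176 to 0.185, and that of GINS2 without Monolayer 1 (0.0616), within a range of 0.00353 to 0.0616.

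GINS4, the fourth subunit of the GINS complex, was lowest in iCSC. Its log2 signals were 7.84 and 7.28 in Monolayer, 7.68 and 8.20 in Sphere and 6.13 and 6.53 in iCSC, so both iCSC arrays lay below all others, and the Monolayer and Sphere arrays overlapped. It was 3.04-fold lower in iCSC than in Sphere (log2 difference -1.61 ± 0.28, adjusted p = 0.00512) and 2.34-fold lower than in Monolayer (-1.23 ± 0.28, adjusted p = 0.00967). Between Sphere and Monolayer the difference was 0.38 ± 0.28 (adjusted p = 0.28). The call against Sphere was lost without variance moderation (0.0696). The call against Monolayer was lost without Monolayer 1 (0.0735), within a range of 0.00699 to 0.0796, and 1 of its 4 probe sets passed the filter, so it was read from that one alone. None of the other 5 initiation genes passed between iCSC and Sphere, and of these MCM10 alone passed against Monolayer (-0.60 ± 0.15, adjusted p = 0.0131), lost without Monolayer 1 (0.0951) or Monolayer 2 (0.0557), within a range of 0.0043 to 0.125. Read from a probe set with no x_at or s_at suffix, MCM10 differed by -0.25 (adjusted p = 0.125). CDC45, at 0.33 ± 0.15 (log2) between iCSC and Sphere (adjusted p = 0.136) and -0.14 ± 0.15 between iCSC and Monolayer (0.469), did not pass in either. Of the 6 initiation genes 16.7% and 33.3% were called in these comparisons, beside 38.5% and 55.6% of all tested genes.

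The 14 genes of polymerases, clamp, clamp loader, flap nuclease and ligase moved in both directions in Sphere, where 6 fell and 3 rose around a median of -0.22. With 64.3% called, they were near the 59.0% of all tested genes. The genes of the polymerase alpha and primase complex did not share a direction. Of polymerase alpha, the catalytic subunit POLA1 read 10.70 and 10.66 in Monolayer, 10.43 and 10.40 in Sphere and 11.03 and 11.16 in iCSC (log2), a difference of -0.26 ± 0.09 (adjusted p = 0.0427). The second subunit, POLA2, read 8.90 and 8.81 in Monolayer, 7.79 and 7.81 in Sphere and 7.55 and 7.77 in iCSC (log2) and was 2.08-fold lower in Sphere (-1.06 ± 0.14, adjusted p = 0.000945). PRIM1, the catalytic subunit of primase in the same complex, read 10.48 and 10.37 in Monolayer, 10.65 and 10.80 in Sphere and 10.59 and 10.72 in iCSC (log2) and rose by 0.30 ± 0.10 (adjusted p = 0.0456). PRIM2, the other primase subunit and one of the other replication genes, read 7.39 and 7.56 in Monolayer, 7.02 and 6.90 in Sphere and 7.57 and 7.11 in iCSC (log2), with Sphere below Monolayer on both arrays but no call (-0.52 ± 0.20, adjusted p = 0.0622). The POLA1 call was lost without Monolayer 1 (0.179), Monolayer 2 (0.126), Sphere 1 (0.107) or Sphere 2 (0.134), within a range of 0.00409 to 0.179. The PRIM1 call was lost without Monolayer 1 (0.103), Monolayer 2 (0.211), Sphere 1 (0.0628) or Sphere 2 (0.196), within a range of 0.0335 to 0.211. The median of chromosome 12, where PRIM1, POLE and RFC5 lie, was 0.49 (log2) in Sphere against Monolayer, and with chromosome medians removed PRIM1 stood at -0.21 (adjusted p = 0.148), RFC5 at -0.04 (0.806) and POLA1 at -0.52.

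Of polymerase delta, which extends the lagging strand, both subunits among the 39 genes fell in Sphere, while POLD2, one of the other replication genes, did not pass (log2 difference -0.21 ± 0.10, adjusted p = 0.132). POLD3, an accessory subunit, read 9.65 and 9.56 in Monolayer, 8.20 and 8.31 in Sphere and 8.57 and 8.70 in iCSC (log2), 2.56-fold lower in Sphere (-1.35 ± 0.12, adjusted p = 0.000164). The catalytic subunit POLD1 read 9.21 and 9.11 in Monolayer, 8.70 and 8.69 in Sphere and 8.35 and 8.49 in iCSC (log2), a difference of -0.47 ± 0.12 (adjusted p = 0.0158). In both, Sphere lay below Monolayer on every array, but the POLD1 call was lost without Monolayer 1 (0.105), Monolayer 2 (0.0608), Sphere 1 (0.0684) or Sphere 2 (0.068), within a range of 0.01 to 0.105. Of polymerase epsilon, which extends the leading strand, neither subunit among the 39 passed in Sphere. Of its accessory subunits among the other replication genes, POLE4 fell in Sphere (-1.23 ± 0.24, adjusted p = 0.00481), a call lost without variance moderation (0.0586), and POLE3 did not pass (0.29 ± 0.14, 0.121). POLE, its catalytic subunit, read 8.25 and 8.28 in Monolayer, 8.64 and 8.87 in Sphere and 8.85 and 9.42 in iCSC (log2), a difference of 0.49 ± 0.20 (adjusted p = 0.0796). POLE2, its second subunit, read 9.43 and 9.23 in Monolayer, 9.03 and 9.17 in Sphere and 7.94 and 8.07 in iCSC (log2), a difference of -0.23 ± 0.13 (adjusted p = 0.191). POLE passed without iCSC 1 (0.0199) or iCSC 2 (0.0212), within a range of 0.0199 to 0.97, and with chromosome medians removed it stood at -0.01 and POLE2 at -0.30. In that setting POLD1 differed by -0.28 (adjusted p = 0.057).

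PCNA, the sliding clamp, was the 1 of the 3 risen members whose call in Sphere held under every alternative, with 12.94 and 12.83 in Monolayer, 13.27 and 13.37 in Sphere and 12.82 and 12.92 in iCSC (log2) and a difference of 0.44 ± 0.08 (adjusted p = 0.00334). Both Sphere arrays lay above the other 4 arrays, and Monolayer and iCSC overlapped (-0.01 ± 0.08, adjusted p = 0.925). Of the clamp loader, RFC5 read 11.23 and 11.09 in Monolayer, 11.54 and 11.71 in Sphere and 11.56 and 11.40 in iCSC (log2) and rose in Sphere by 0.46 ± 0.11 (adjusted p = 0.00933), while its other 2 probe sets differed by -0.06 and -0.24. RFC2 read 10.56 and 10.37 in Monolayer, 9.94 and 10.23 in Sphere and 10.10 and 10.21 in iCSC (log2) and fell by 0.37 ± 0.13 on the log2 scale (adjusted p = 0.0486). RFC3 and RFC4, from the same loader, had differences of -0.22 ± 0.10 (adjusted p = 0.103) and -0.22 ± 0.10 (0.102), so the 4 loader genes did not move as 1 group. RFC4 read 12.05 and 12.01 in Monolayer, 11.73 and 11.89 in Sphere and 11.83 and 12.03 in iCSC (log2). FEN1, the nuclease that trims flaps between lagging-strand fragments, read 12.58 and 12.40 in Monolayer, 11.93 and 12.01 in Sphere and 11.46 and 11.85 in iCSC (log2) and fell in Sphere by 0.52 ± 0.14 on the log2 scale (adjusted p = 0.0174). LIG1, the ligase that joins those fragments, overlapped between the groups at 9.09 and 8.78 in Monolayer, 8.78 and 8.85 in Sphere and 8.60 and 8.87 in iCSC (log2). The RFC5 call was lost without Monolayer 2 (0.0743) or Sphere 2 (0.0588), within a range of 0.00453 to 0.806, and that of RFC2 without Monolayer 1 (0.25), Monolayer 2 (0.0826), Sphere 1 (0.237), iCSC 1 (0.052) or iCSC 2 (0.0524), within a range of 0.032 to 0.25. The FEN1 call was lost without Monolayer 1 (0.122), Monolayer 2 (0.0507), Sphere 1 (0.0992) or Sphere 2 (0.0619), within a range of 0.00375 to 0.122, and RFC3 passed as lower without Sphere 2 (0.0368), within a range of 0.0368 to 0.566.

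Between iCSC and Sphere, 3 of the 14 rose and 2 fell, with a median of -0.07 (35.7% called, beside 38.5% of all tested genes). POLA1 rose by 0.68 ± 0.09 (log2, adjusted p = 0.00167), and its iCSC arrays lay above all 4 others, so it also stood above Monolayer, by 0.42 ± 0.09 (adjusted p = 0.00781). POLE2 was 2.14-fold lower in iCSC than in Sphere (-1.10 ± 0.13, adjusted p = 0.00124) and 2.50-fold lower than in Monolayer (-1.32 ± 0.13, adjusted p = 0.000346). The median of chromosome 14, which holds POLE2, was -0.67 (log2) in iCSC against Sphere, and with chromosome medians removed the POLE2 difference was -0.36 (adjusted p = 0.0964). Of the epsilon subunits among the other replication genes, POLE4 rose 2.81-fold (1.49 ± 0.24, adjusted p = 0.00403), a call lost without variance moderation (0.0651). POLE3 did not pass (0.37 ± 0.14, adjusted p = 0.0822). PCNA fell by 0.45 ± 0.08 on the log2 scale (adjusted p = 0.00548). POLD3 and RFC3 rose by 0.38 ± 0.12 (adjusted p = 0.0486) and 0.33 ± 0.10 (0.0392), the latter from log2 signals of 11.71 and 11.71 in Monolayer, 11.38 and 11.61 in Sphere and 11.87 and 11.78 in iCSC. With chromosome medians removed POLD3 differed by 0.67. Leaving out any 1 of the 6 arrays ended the POLD3 call, without Monolayer 1 (0.102), Monolayer 2 (0.102), Sphere 1 (0.188), Sphere 2 (0.103), iCSC 1 (0.0522) or iCSC 2 (0.125), within a range of 0.0065 to 0.188. The RFC3 call was lost without Monolayer 1 (0.0895), Monolayer 2 (0.0895), Sphere 1 (0.164), iCSC 1 (0.112) or iCSC 2 (0.0558), within a range of 0.0288 to 0.957, and the third of its probe sets, with signals between 5.12 and 6.36, differed by -0.67. POLE passed as higher without iCSC 1 (0.0262), within a range of 0.0262 to 0.698, and FEN1 as lower without iCSC 2 (0.0159), within a range of 0.0159 to 0.869.

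Against Monolayer, 5 of the 14 fell in iCSC and 3 rose, around a median of -0.15 (57.1% called, beside 55.6% of all tested genes). POLA2 was 2.30-fold lower (-1.20 ± 0.14, adjusted p = 0.000644), and beside POLE2 the others that fell were POLD3 at -0.97 ± 0.12 (0.000851), FEN1 at -0.84 ± 0.14 (0.00267) and POLD1 at -0.74 ± 0.12 (0.00261). These 5 calls held under every alternative, but with chromosome medians removed the difference of POLE2 was -0.65 and that of POLD1 -0.41, where the median of chromosome 14 was -0.59. POLE, at 0.87 ± 0.20 (adjusted p = 0.0116), was 1.82-fold higher, so the catalytic and the second subunit of polymerase epsilon were called in opposite directions, as were POLA1 and POLA2 of polymerase alpha. Among the other replication genes, the epsilon subunit POLE3 was higher (0.66 ± 0.14, adjusted p = 0.00772), a call lost with chromosome medians removed. POLE4 did not pass (0.26 ± 0.24, adjusted p = 0.406). RFC5 rose by 0.32 ± 0.11 (adjusted p = 0.0412), and its other probe sets differed by -0.16 and -0.34. The POLE call was lost without Monolayer 1 (0.0739) or Monolayer 2 (0.0662), within a range of 0.00296 to 0.181, and the POLA1 call without Monolayer 2 (0.0591), within a range of 0.00518 to 0.0591. The RFC5 call was lost without Monolayer 1 (0.0837), Monolayer 2 (0.214), Sphere 1 (0.0519), Sphere 2 (0.052) or iCSC 1 (0.14), within a range of 0.0182 to 0.637. The median of chromosome 12 was 0.54 (log2) here, and with chromosome medians removed POLE stood at 0.34 (adjusted p = 0.181), RFC5 at -0.20 (0.197) and POLA1 lost its call (0.0523).

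All 4 nucleotide supply genes fell in Sphere, with a median log2 difference of -0.73, where 29.1% of all tested genes fell. TK1, the cytosolic thymidine kinase of the salvage pathway, read 10.71 and 10.36 in Monolayer, 8.51 and 9.12 in Sphere and 8.77 and 9.35 in iCSC (log2), 3.30-fold lower in Sphere (-1.72 ± 0.27, adjusted p = 0.00193). RRM2, the S phase subunit of ribonucleotide reductase, read 13.06 and 12.90 in Monolayer, 11.81 and 12.16 in Sphere and 12.61 and 12.45 in iCSC (log2), 1.99-fold lower in Sphere (-0.99 ± 0.13, adjusted p = 0.000878). For both, the lowest Monolayer array stood well above the highest Sphere array, and a second probe set differed by -1.61 for TK1 and -1.56 for RRM2. RRM1, the large subunit of the reductase, read 12.12 and 12.00 in Monolayer, 11.51 and 11.66 in Sphere and 11.26 and 11.49 in iCSC (log2), a difference of -0.48 ± 0.11 (adjusted p = 0.00963). TYMS, the thymidylate synthase, read 13.33 and 13.25 in Monolayer, 12.76 and 12.94 in Sphere and 12.89 and 13.23 in iCSC (log2), a difference of -0.44 ± 0.13 (adjusted p = 0.0222). For both, the Sphere arrays lay below the Monolayer arrays without overlap. The RRM1 call was lost without Monolayer 1 (0.0785) or Sphere 1 (0.0661), within a range of 0.00241 to 0.0909, and that of TYMS without Monolayer 1 (0.129), Monolayer 2 (0.0826) or Sphere 1 (0.134), within a range of 0.00659 to 0.134, and also with chromosome medians removed (0.0791).

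In iCSC, RRM2 was called against Sphere and RRM1 was not. RRM2 was higher than in Sphere by 0.55 ± 0.13 (log2, adjusted p = 0.018) and still lower than in Monolayer, by -0.45 ± 0.13 (adjusted p = 0.0274), so its iCSC arrays lay between the other groups with no overlap. Its second probe set differed by 0.64 from Sphere and by -0.92 from Monolayer, a larger distance from Monolayer. RRM1 did not pass against Sphere (-0.21 ± 0.11, adjusted p = 0.181) and was lowest in iCSC, -0.68 ± 0.11 against Monolayer (0.00231), a call that held under every alternative. Whether the change of RRM2 differed from that of RRM1 was not tested. TK1 overlapped between iCSC and Sphere (0.25 ± 0.27, adjusted p = 0.524) and was 2.78-fold lower in iCSC than in Monolayer (-1.48 ± 0.27, adjusted p = 0.00427), a call lost without variance moderation (0.064). TYMS did not pass against either group, at 0.21 ± 0.13 (adjusted p = 0.232) and -0.23 ± 0.13 (0.167), except without iCSC 1 against Sphere (0.0369, within 0.0369 to 0.792) and without iCSC 2 against Monolayer (0.0229, within 0.0229 to 0.849). The RRM2 call against Sphere was lost without Sphere 1 (0.0801) or iCSC 1 (0.073), within a range of 0.0132 to 0.12, and that against Monolayer without Monolayer 1 (0.166), Monolayer 2 (0.0707) or iCSC 2 (0.108), within a range of 0.00184 to 0.166. With chromosome medians removed RRM2 differed from Monolayer by -0.82.

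Of the 4 regulators of S phase entry, 3 fell in Sphere (75.0% called, against 59.0% of all tested genes), and the 2 E2F genes of this step differed in sign. CCNE2, a cyclin E that activates CDK2 at the G1 to S transition, showed the largest difference of all 39 genes in this comparison, with 11.28 and 11.24 in Monolayer, 8.89 and 9.07 in Sphere and 10.15 and 10.27 in iCSC (log2). It was 4.83-fold lower in Sphere than in Monolayer (-2.27 ± 0.11, adjusted p = 8.24e-06), and a second probe set differed by -2.74. The other cyclin E gene, CCNE1, read 8.52 and 8.40 in Monolayer, 7.61 and 7.84 in Sphere and 7.58 and 8.11 in iCSC (log2), 1.66-fold lower in Sphere (-0.73 ± 0.21, adjusted p = 0.0223). E2F8, an atypical E2F that represses E2F targets, read 9.99 and 10.03 in Monolayer, 8.73 and 9.0 in Sphere and 9.14 and 9.17 in iCSC (log2), 2.21-fold lower in Sphere (-1.14 ± 0.13, adjusted p = 0.000405). E2F1, an activator of the same targets, read 8.57 and 8.41 in Monolayer, 8.79 and 8.91 in Sphere and 9.10 and 9.45 in iCSC (log2), with no overlap between Sphere and Monolayer but no call (0.36 ± 0.16, adjusted p = 0.0903). The CCNE1 call was lost without Monolayer 1 (0.126), Monolayer 2 (0.0824), Sphere 1 (0.129) or Sphere 2 (0.0556), within a range of 0.00784 to 0.129, and E2F1 passed as higher without iCSC 1 (0.0441) or iCSC 2 (0.0458), within a range of 0.026 to 0.331.

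In iCSC, CCNE2 lay between the other groups on both arrays, 2.34-fold above Sphere (1.23 ± 0.11, adjusted p = 0.000271) and 2.07-fold below Monolayer (-1.05 ± 0.11, adjusted p = 0.000344). Its second probe set differed by 1.59 and -1.16 (log2), and both calls held under every alternative. CCNE1 overlapped between iCSC and Sphere (0.12 ± 0.21, adjusted p = 0.703) and was lower than in Monolayer by -0.61 ± 0.21 (adjusted p = 0.0439). E2F8 was 1.81-fold lower in iCSC than in Monolayer (-0.86 ± 0.13, adjusted p = 0.00165) and did not pass against Sphere (0.28 ± 0.13, adjusted p = 0.126). E2F1 read highest on the iCSC arrays, 1.72-fold above Monolayer (0.78 ± 0.16, adjusted p = 0.00612), so the activator E2F1 and the repressor E2F8 were called in opposite directions there. Against Sphere the E2F1 difference was 0.42 ± 0.16 (adjusted p = 0.0787), and it passed without iCSC 1 (0.0292), within a range of 0.0292 to 0.285. The E2F1 call against Monolayer was lost without Monolayer 2 (0.0537), within a range of 0.00441 to 0.0537. The CCNE1 call against Monolayer was lost without Monolayer 1 (0.194), Monolayer 2 (0.127), Sphere 1 (0.0727), Sphere 2 (0.0732) or iCSC 1 (0.157), within a range of 0.011 to 0.234, and with chromosome medians removed it differed by -0.28 (0.234).

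**Figure D4:**
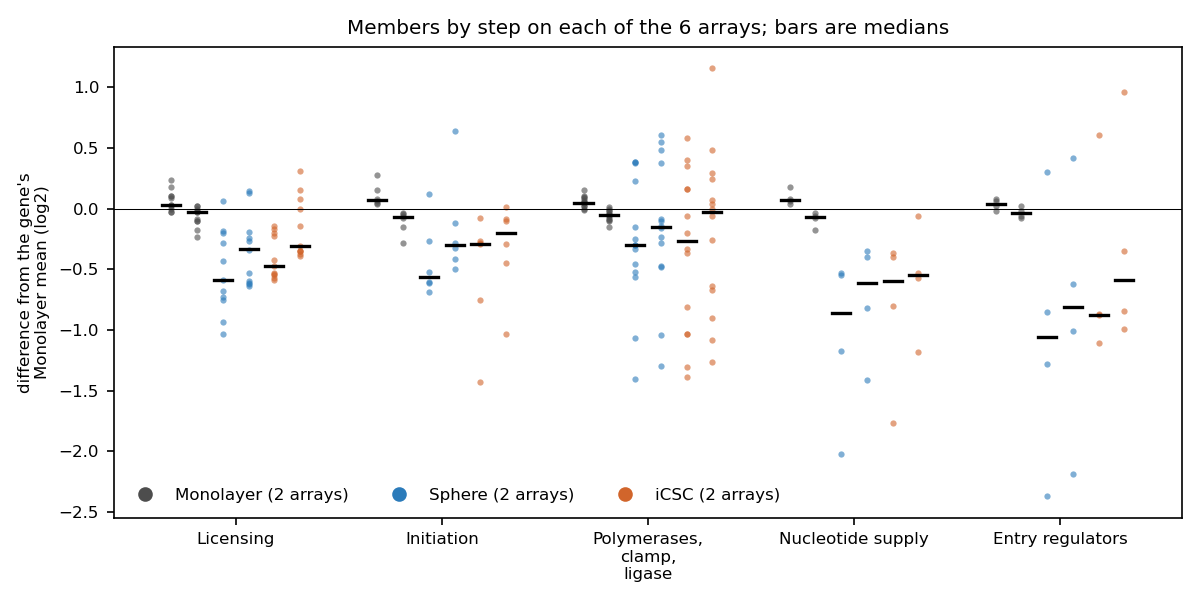
Difference of each member from its own Monolayer mean (vertical axis, log2) on the 6 arrays, by step, with 1 point per gene and a bar at the median of the step on that array. The licensing medians are -0.59 and -0.33 on the Sphere arrays and -0.47 and -0.31 on the iCSC arrays, and those of S phase entry are -1.06 and -0.81 in Sphere and -0.88 and -0.59 in iCSC.

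Seen array by array, the median of each step was below both Monolayer arrays on the 4 spheroid arrays, except for the polymerase step on iCSC 2, which lay within the Monolayer arrays (-0.03 against 0.05 and -0.05). Over the 39 genes the median difference from the Monolayer mean was -0.52 and -0.33 (log2) on the Sphere arrays and -0.40 and -0.29 on the iCSC arrays, while the Monolayer arrays stood at 0.05 and -0.05. For nucleotide supply the medians were -0.86 and -0.61 on the Sphere arrays and -0.60 and -0.55 on the iCSC arrays. For entry regulators they were -1.06 and -0.81 in Sphere and -0.88 and -0.59 in iCSC. The polymerase step had the smallest shifts, with -0.30 and -0.15 in Sphere and -0.27 and -0.03 in iCSC. In both spheroid groups the first array thus had the lower median for all 5 steps.

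Ordered by group means, 20 of the 39 genes ran from Monolayer over iCSC down to Sphere, and 10 from Monolayer over Sphere down to iCSC, so 30 had their highest mean in Monolayer. Some orders rest on differences smaller than their standard errors. ORC1 had means of 7.31 in Monolayer, 7.28 in Sphere and 7.27 in iCSC, and GINS1 had 11.69 in both spheroid groups (log2). GINS4 and PCNA were highest in Sphere and lowest in iCSC, MCM3, PRIM1 and RFC5 highest in Sphere and lowest in Monolayer, POLA1 and RFC3 highest in iCSC and lowest in Sphere, and POLE and E2F1 highest in iCSC and lowest in Monolayer. By calls, 14 genes were lower than Monolayer in both spheroid groups with no call between these, namely ORC6, GMNN, MCM2, MCM4, MCM5, MCM6, MCM10, POLA2, POLD1, FEN1, RRM1, TK1, CCNE1 and E2F8. POLD3, RRM2 and CCNE2 were lower in both and differed between them, with iCSC above Sphere. For 8 genes, ORC1, CDT1, MCM3, MCM7, GINS1, GINS3, RFC4 and LIG1, no comparison passed. Neither the orders of means nor these patterns of calls were counted over all tested genes. In Sphere against Monolayer the calls of MCM4, POLA2, POLD3, RRM2, TK1, CCNE2, E2F8 and PCNA held in all alternatives they could be fitted in, 8 of 26. In iCSC against Sphere those of POLA1, CCNE2 and PCNA did, 3 of 8, and in iCSC against Monolayer those of POLA2, POLD1, POLD3, POLE2, FEN1, RRM1, CCNE2 and E2F8, 8 of 23. Of 18 members with several passing probe sets, those called had every probe set on the called side in 12 of 13 cases for Sphere against Monolayer, 2 of 3 for iCSC against Sphere and 10 of 11 for iCSC against Monolayer, RFC5 and RFC3 being the exceptions.

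Calls and promoter motifs were set side by side, first for Sphere against Monolayer. Of the 27 members with a motif, 12 fell, 3 rose and 12 did not pass, with a median log2 difference of -0.26. The 6 members with windows but no motif, ORC6, MCM10, CDC45, POLD1, FEN1 and CCNE1, all fell, with a median of -0.49. Of the 6 with no window at hand, 5 fell, with a median of -0.91. Among the 5 promoters printed, MCM6, TK1 and POLA1 belong to genes that fell, PCNA to one that rose, and E2F1 to one that did not pass. In iCSC against Sphere, 3 of the 27 with a motif rose, 2 fell and 22 did not pass. None of the 6 with windows but no motif passed there. In iCSC against Monolayer, 8 of the 27 fell, 4 rose and 15 did not pass, and 5 of the 6 without a motif fell. Of the 6 with no window, 2 rose and 1 fell in iCSC against Sphere, and all 6 fell in iCSC against Monolayer. Such counts were not made over all tested genes, and a link between motif and call was not tested.

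Other genes of DNA replication, 73 in number and 69 of them tested, were set beside the 39. They hold the remaining origin, primase, polymerase and nucleotide synthesis genes, single-strand binding proteins, fork protection and chromatin assembly factors, and further E2F and retinoblastoma family genes. In Sphere against Monolayer 26 of the 69 fell and 11 rose (53.6% called, median log2 difference -0.23), in iCSC against Sphere 7 fell and 18 rose (36.2%, 0.18), and in iCSC against Monolayer 20 fell and 14 rose (49.3%, -0.12). Of all tested genes 59.0%, 38.5% and 55.6% were called in these comparisons, so the share called among the 69 was the lower in each. Of other origin genes, CDC7, the kinase that triggers firing, read 10.70 and 10.80 in Monolayer, 11.55 and 11.80 in Sphere and 10.20 and 10.60 in iCSC (log2), higher in Sphere than in Monolayer (0.92 ± 0.15, adjusted p = 0.00245) and lower in iCSC than in Sphere (-1.27 ± 0.15, adjusted p = 0.00116). TICRR, which brings CDC45 to origins, read 7.54 and 7.34 in Monolayer, 6.24 and 6.47 in Sphere and 7.27 and 7.44 in iCSC (log2), lower in Sphere (-1.09 ± 0.17, adjusted p = 0.00194) and with a rise from Sphere to iCSC (1.0 ± 0.17, adjusted p = 0.00514). With chromosome medians removed the TICRR difference was 0.59 and not called (adjusted p = 0.0576). ORC2, a subunit of the origin complex, was highest in iCSC at 7.89 and 7.97 in Monolayer, 8.73 and 8.50 in Sphere and 9.17 and 8.88 in iCSC (log2, 1.09 ± 0.16 against Monolayer, adjusted p = 0.00151). RPA1, the large single-strand binding protein, read 11.72 and 11.77 in Monolayer, 10.25 and 10.25 in Sphere and 11.34 and 11.24 in iCSC (log2), with -1.49 ± 0.08, adjusted p = 1.57e-05 in Sphere against Monolayer and 1.04 ± 0.08, adjusted p = 0.000168 in iCSC against Sphere. RNASEH2B, a subunit of the enzyme that removes ribonucleotides from DNA, read 7.40 and 7.27 in Monolayer, 9.46 and 9.28 in Sphere and 8.66 and 8.60 in iCSC (log2), the largest rise among the 69 in Sphere (2.04 ± 0.13, adjusted p = 3.69e-05). RNASEH2C, of the same enzyme, read 9.72 and 9.51 in Monolayer, 8.18 and 8.15 in Sphere and 7.39 and 7.62 in iCSC (log2) and fell in iCSC against Monolayer by 2.11 ± 0.15 on the log2 scale (adjusted p = 6.8e-05), while RNASEH2B rose in that comparison (1.29 ± 0.13, adjusted p = 0.000378).

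SAMHD1, which degrades deoxynucleotides, read 10.32 and 10.22 in Monolayer, 8.86 and 8.57 in Sphere and 9.72 and 9.61 in iCSC (log2), lower in Sphere (-1.55 ± 0.13, adjusted p = 0.000126) and with a rise from Sphere to iCSC (0.95 ± 0.13, adjusted p = 0.00215). E2F7, the other atypical repressor, read 10.14 and 9.90 in Monolayer, 7.43 and 7.64 in Sphere and 9.30 and 9.41 in iCSC (log2), the largest fall among the 69 in Sphere (-2.49 ± 0.14, adjusted p = 1.99e-05) and the largest rise from Sphere to iCSC (1.82 ± 0.14, adjusted p = 0.000175). Like CCNE2, it lay between the other groups in iCSC on both arrays. E2F5, an E2F that acts with the retinoblastoma family, rose in Sphere from Monolayer (1.08 ± 0.13, adjusted p = 0.000639) with log2 signals of 8.74 and 8.85 in Monolayer, 9.72 and 10.02 in Sphere and 9.91 and 9.90 in iCSC. RBL1, a member of that family, read 9.23 and 9.21 in Monolayer, 7.80 and 7.62 in Sphere and 8.39 and 8.07 in iCSC (log2), lower in Sphere (-1.51 ± 0.16, adjusted p = 0.000305). TFDP1, the partner with which E2F proteins bind DNA, read 12.28 and 12.22 in Monolayer, 10.85 and 11.04 in Sphere and 11.83 and 12.06 in iCSC (log2), with a rise from Sphere to iCSC (1.0 ± 0.11, adjusted p = 0.00074). In these 20 other entry genes, 9 fell and 3 rose in Sphere against Monolayer, and 8 rose and none fell in iCSC against Sphere. The shares called in this list were near those of all tested genes, 59.0% and 38.5%. Of 25 genes of mitosis, a further list for dividing cells, 17 fell and none rose in Sphere against Monolayer (median -0.65), 9 rose and none fell in iCSC against Sphere (0.34), and 10 fell and none rose in iCSC against Monolayer (-0.27). The share of mitosis genes called was above the 59.0% of all tested genes in Sphere against Monolayer. It was near the 38.5% of all tested genes in iCSC against Sphere and below the 55.6% in iCSC against Monolayer.

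**Figure D5:**
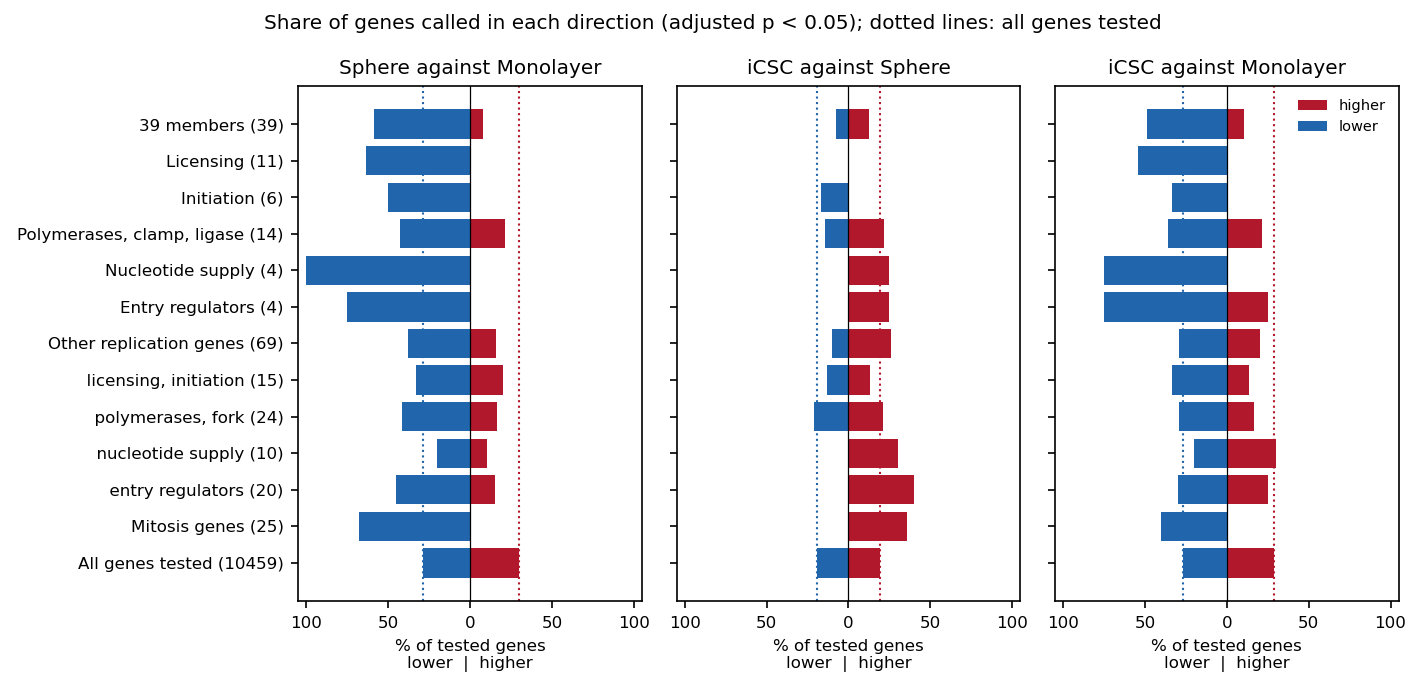
Share of tested genes called lower (bars to the left) and higher (bars to the right) in each step, in the other replication genes and in mitosis genes, as percent of the number in brackets, with the shares of all 10459 genes as dotted lines. In Sphere against Monolayer the bars of the 39 genes reach further to the lower side, 23 genes, than to the higher, 3 genes.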

How the data were processed

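The 6 arrays (HG-U133 Plus 2.0, SK-N-AS cells, 2 per group) were hybridised with RNA amplified from total RNA, per the labels' protocols. The deposited values are log2 signals that the authors normalised with GCRMA in Partek, per the submitters' processing notes, which name no version. GCRMA subtracts background modelled from probe sequence and scales arrays to one distribution, so small values are compressed and a shift of all genes alike cannot be seen.

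Probe sets with 1 platform symbol were kept, and each gene was read from the probe set with the highest mean. Genes with a log2 value of at least 5 on at least 2 of 6 arrays, 10459 in all, were fitted with limma 3.58.1 (R 4.3.3), 1 model over the 3 groups with 3 residual degrees of freedom, moderated variances and Benjamini-Hochberg adjustment over all genes, called at an adjusted p of 0.05. Of the other replication genes, up to 2 called higher and 2 called lower per sublist and comparison, by largest difference, were eligible to be named; array values are printed for every member. POLD2, POLE3, PRIM2 and, for both comparisons against Monolayer, POLE4 fall outside that rule and were added after their values were seen, to complete their enzymes. In the main fit, replicate numbers were not used to pair the arrays. The 17 alternatives changed the probe-set choice, filter, scaling, variance model, block or chromosome shift, or left out an array. A fit without 1 array has fewer residual degrees of freedom, so a call can be lost with little change in the difference. Shares called over all genes are not given for such fits. The scripts were tested on simulated data; Python 3.11.15 and matplotlib 3.10.9 drew the figures. The members and lists were chosen with earlier results of these data known.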

Additional observations from a re-analysis of the deposited data

How the results depend on the processing

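The members' median difference kept its sign in every alternative, from -0.52 to -0.33 in Sphere against Monolayer and from -0.40 to -0.26 in iCSC against Monolayer, but in iCSC against Sphere it ran from 0.02 to 0.25 when single arrays were left out. Leaving out 1 array at a time gave 11 to 27 members called in Sphere against Monolayer, 5 to 10 in iCSC against Sphere and 11 to 23 in iCSC against Monolayer, and 14 to 25 and 14 to 36 of the other replication genes in the last 2 comparisons. Without variance moderation 13, 4 and 12 members were called in the 3 comparisons, with 13 and 17 of the other genes in the last 2, and without probe sets that may cross-hybridise 17 members were called in Sphere against Monolayer and 14 in iCSC against Monolayer, among 28 still tested. With the replicate block 24, 9 and 21 members were called. Deviations of same-numbered arrays correlated at 0.019 for Monolayer and Sphere, -0.053 for Monolayer and iCSC and 0.173 for Sphere and iCSC. Whether the numbers pair the Sphere and iCSC arrays was not tested. Removing chromosome medians reversed PRIM1 (-0.21), RFC4 (0.32) and RFC5 (-0.04) in Sphere against Monolayer, RFC3 (-0.01) in iCSC against Sphere, and MCM2 (0.06), RFC4 (0.42) and RFC5 (-0.20) in iCSC against Monolayer. Each of these was called as reported or in this setting. Uncalled differences also changed sign there, those of POLE and LIG1 in the first comparison, POLA2, RRM1, TK1 and LIG1 in the second, and PRIM1, RFC3 and LIG1 in the third. The mean of passing probe sets reversed RFC5 in iCSC against Monolayer (-0.06) and CTPS2 in Sphere and in iCSC against Monolayer (-0.23 and -0.27), and the cause was not tested. With the longer motif of 8 letters, a stricter search by construction, 45.2% of the members' windows held a match. In that search 4.97% of the windows of tested genes and 3.31% of all windows did. Signals near background limit what the arrays show of weakly expressed genes.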
